A study of Mus musculus with 6 samples.

Results

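The Ces1 carboxylesterase cluster of mouse chromosome 8 was followed in RNA sequencing of Nono knockout (KO) and wild-type (WT) cells. Its 8 protein-coding genes, Ces1a to Ces1h, were taken by symbol from a table of 56393 Ensembl genes, and all 8 were listed there. They were selected on their KO and WT counts in these same libraries, so the difference between KO and WT in these genes is given as a description, without a test. The series holds 3 KO and 3 WT libraries from cells labelled vascular smooth muscle cells (VSMC), the muscle of artery and vein walls. Both groups were primary mouse cells grown in DMEM with 20% serum and no added treatment. The way Nono was inactivated, the strain, age and sex of the mice, and whether replicates came from separate cultures are not in the labels. All p-values below therefore speak to the scatter among 6 libraries, and this scatter may be technical. NONO binds RNA and DNA and is a core part of nuclear bodies called paraspeckles, and the series' title concerns its effect on BMP2 and vascular calcification.

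Carboxylesterases are serine hydrolases of the endoplasmic reticulum that split ester, amide and thioester bonds in drugs and in neutral lipids. In mice the Ces1 genes form a row of tandem copies that is best known from liver, where family members release fatty acids from stored triacylglycerol and inactivate ester drugs. Ces1d, also called triacylglycerol hydrolase, and its relatives Ces1f and Ces1g act on triacylglycerol in mouse liver and fat. Ces1e, or egasyn, holds beta-glucuronidase in the endoplasmic reticulum of mouse liver, and Ces1c is the secreted esterase of mouse plasma.

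Of the 8 genes, 6 had counts in KO libraries and none had a count in any WT library. All 8 lie on the same strand in the annotation with no other protein-coding gene between them, so the order of their names is also their order on the chromosome. Total counts were 56529170 to 61670083 per library. Nono had 55.9, 54.8 and 51.1 CPM (counts scaled to library size by trimmed mean of M-values) in KO, against 523, 502 and 519 CPM in WT, 9.54-fold lower in KO (edgeR, Benjamini-Hochberg adjusted p = 1.63e-09). Nono was thus far lower in each KO library, and some of its reads were left.

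The promoters of Ces1g and Ces1a, which had counts in every KO library, are shown beside those of Ces1b and Ces1c, which had none. Each sequence is the 150 bases before the annotated start, on the minus strand, from RefSeq on build GRCm38.p6. The submitters' notes name GRCm39 for the reads, so the positions belong to the printed sequences and not to the counts. Capitals mark TATAAA or CCAAT, on either strand.
Ces1g, chr8:93337210-93337359: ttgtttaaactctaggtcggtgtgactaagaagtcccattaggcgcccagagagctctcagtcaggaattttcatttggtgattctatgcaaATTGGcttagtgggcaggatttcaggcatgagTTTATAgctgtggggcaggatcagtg
Ces1a, chr8:93048193-93048342: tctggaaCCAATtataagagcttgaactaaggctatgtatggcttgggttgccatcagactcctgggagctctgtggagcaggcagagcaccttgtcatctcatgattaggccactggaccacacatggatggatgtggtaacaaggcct
Ces1b, chr8:93079941-93080090: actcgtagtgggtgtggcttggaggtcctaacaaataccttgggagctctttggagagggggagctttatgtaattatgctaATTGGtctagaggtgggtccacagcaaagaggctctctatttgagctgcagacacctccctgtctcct
Ces1c, chr8:93131284-93131433: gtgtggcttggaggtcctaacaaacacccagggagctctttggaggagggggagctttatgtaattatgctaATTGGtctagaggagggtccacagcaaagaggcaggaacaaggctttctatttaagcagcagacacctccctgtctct

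The table of promoters held 6 of the 8 genes, with 7 windows in all because Ces1b has 2, and Ces1d and Ces1f were not matched. Over the 250 bases before the start, the Ces1b window shown and that of Ces1c were 76.9% identical in a global alignment. The other pairs of different genes among the 6, the second Ces1b window included, were 44.8% to 57.1% identical. TATAAA was found in Ces1g and Ces1h, and in 12.4% of all 32851 promoter windows of the table. CCAAT was found in Ces1a, Ces1b, Ces1c and Ces1g, and in 33.8% of all windows. The other motifs searched on both strands were the GC box GGGCGG (32.7% of all windows), the nuclear receptor half-site AGGTCA (14%), the antioxidant response core TGACNNNGC (10.2%) and the xenobiotic response core GCGTG (28.2%). These letters were in none of the 7 Ces1 windows, which says nothing of more distant sequence or of any factor.

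Ces1g, also called esterase-x in mouse, had the most counts of the cluster. It had 4343, 3568 and 3964 counts in KO, or 74.01, 64.9 and 67.2 CPM, against 0 counts in each WT library. All KO libraries lay close together and apart from WT. The level in KO was 68.7 ± 4.75 CPM (SD, n = 3). With WT set to a floor of 3 counts in its 3 libraries together (0.0161 CPM), the KO level was at least 4260.5-fold higher. Floors cover counting error only, since reads copied by PCR are not independent molecules.

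Ces1d, the triacylglycerol hydrolase of mouse liver and fat, was next. It had 706, 682 and 657 counts in KO, or 12.03, 12.4 and 11.1 CPM, against 0 counts in each WT library. Its KO values varied least, with a coefficient of variation of 5.44%, against 6.92% for Ces1g, 10.1% for Ces1f and 14.8% for Ces1a. The level in KO was 11.9 ± 0.64 CPM (SD, n = 3), at least 735-fold above the WT floor.

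Ces1f, also called TGH-2, had 408, 468 and 452 counts in KO, or 6.95, 8.51 and 7.67 CPM, against 0 counts in each WT library. KO replicate 1, the highest library for Ces1g, was the lowest for Ces1f. The level in KO was 7.71 ± 0.78 CPM (SD, n = 3), at least 478-fold above the WT floor.

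Ces1a had 128, 124 and 100 counts in KO, or 2.18, 2.25 and 1.70 CPM, against 0 counts in each WT library. The KO values lay apart from WT in all libraries. The level in KO was 2.04 ± 0.30 CPM (SD, n = 3), at least 127-fold above the WT floor. The noncoding gene Gm45463 overlaps Ces1a on the opposite strand and was at 0.716, 0.818 and 0.831 CPM in KO, against 0 counts in each WT library. No source used here says whether strand was used in counting, so reads of these 2 genes may not be separable.

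Ces1h and Ces1e were near the limit of detection. Ces1h had 16, 4 and 16 counts in KO, against 0 counts in each WT library. The 95% Poisson interval of the 4 counts in KO replicate 2 (1.09 to 10.2) overlapped that of the 16 counts in each of the others (9.15 to 26.0). These intervals cover counting error only. The level in KO was 0.206 ± 0.115 CPM (SD, n = 3), at least 12.7-fold above the WT floor.

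Ces1e, egasyn, had 9 counts, all of them in KO replicate 2, and 0 counts in the other 5 libraries. The KO and WT values overlapped at 0. The 95% Poisson interval of the 9 counts was 4.12 to 17.1, and that of a library at 0 reached 3.69. Without KO replicate 2 Ces1e was at 0 counts in every library.

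Ces1b and Ces1c, which lie side by side between Ces1a and Ces1d, had 0 counts in all 6 libraries. A count of 0 allows a level of up to 0.0174 CPM for each in KO and up to 0.0161 CPM in WT, at 3 counts for a group. The silent pair thus sat between genes that were counted in every KO library.

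**Figure D1:**
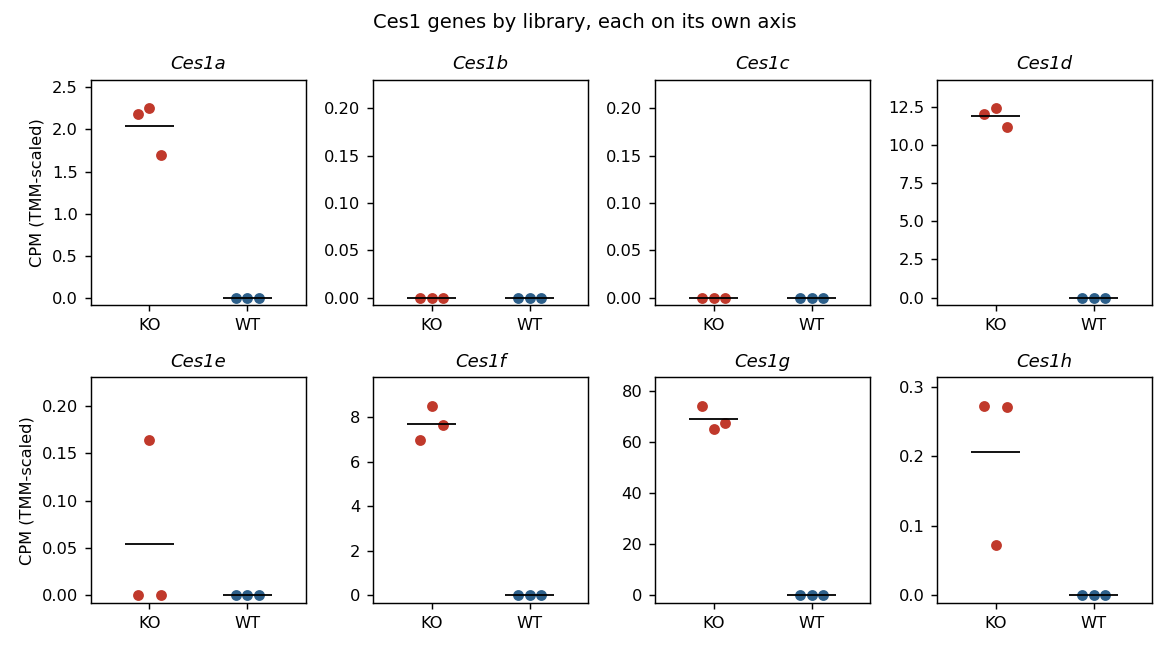
Level of each Ces1 gene (CPM, scaled by trimmed mean of M-values) in 3 KO libraries (red) and 3 WT libraries (blue), with each gene on its own axis; points are libraries and lines are group means. KO values of Ces1g sit between 64.9 and 74.01 CPM, and every WT point is at 0.

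Summed over the cluster, KO libraries held 5601, 4855 and 5189 counts, or 95.4, 88.2 and 88.0 CPM, against 0 counts in each WT library. The 15645 KO counts of the cluster thus faced 0 counts in WT, a level of 90.6 ± 4.23 CPM in KO (SD, n = 3) that was at least 5617-fold above the WT floor. In 5 of the 8 genes every KO library had a count and no WT library did, which held for 861 of the 56393 listed genes (1.53%) and for 2.29% of the 18732 genes that passed the low-count filter. The KO values of the same 5 genes lay above WT without overlap, as did those of 38.4% of the tested genes, while 75.5% lay apart in either direction. Over all tested genes, 69.3% differed between KO and WT (edgeR, adjusted p under 0.05). Only 14 listed genes, Ces1g among them, had no WT count and a KO level as high as that of Ces1g. The filter kept Ces1a, Ces1d, Ces1f and Ces1g, and they could pass only through their KO values. No weight was placed on these shares, because the genes were chosen for this difference.

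Levels of different Ces1 genes were compared per transcript length, on the FPKM values (fragments scaled by transcript length and library size) deposited by the authors. In KO, Ces1g was at 24.1 ± 1.56 FPKM, Ces1d at 5.42 ± 0.49, Ces1f at 4.16 ± 0.32 and Ces1a at 0.968 ± 0.212 FPKM (SD, n = 3). Ces1h followed at 0.0917 ± 0.0513 FPKM and Ces1e at 0.0197 ± 0.0341 FPKM (SD, n = 3). Each of Ces1g, Ces1d, Ces1f and Ces1a was above the next in every KO library, without overlap. The steps differed in size, since mean FPKM was 4.45 times higher in Ces1g than in Ces1d, 1.302 times higher in Ces1d than in Ces1f and 4.30 times higher in Ces1f than in Ces1a. The length that counts and FPKM imply was 2723 to 2724 bases for Ces1g, above the 2388 bases of its GENCODE M21 transcript. It was 2017 to 2161 bases for Ces1d, 1563 to 1924 for Ces1f and 1873 to 2239 for Ces1a. Counts and deposited FPKM thus do not imply 1 length for Ces1d, Ces1f or Ces1a, and the reason was not tested. The small step from Ces1d to Ces1f rests on these lengths. Ces1h and Ces1e overlapped, and Ces1e overlapped with the genes at 0. Among tested genes, 83.3% had a lower mean FPKM in KO than Ces1g, 52.7% than Ces1d, 48.3% than Ces1f and 31.1% than Ces1a.

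The make-up of the cluster was similar between KO libraries. Ces1g made up 70.4%, 66.5% and 71.1% of the summed Ces1 FPKM, Ces1d 14.7%, 17.2% and 14.9%, and Ces1f 11.5%, 12.9% and 11.5%. Ces1a made up 3.02%, 3.12% and 2.18%. KO replicate 2 had the lowest share of Ces1g and the highest of Ces1d, Ces1f and Ces1a. In raw counts, Ces1g exceeded Ces1d by 6.15, 5.23 and 6.03 times in KO replicates 1, 2 and 3. These shares have no WT counterpart, because no WT library had a Ces1 count.

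**Figure D2:**
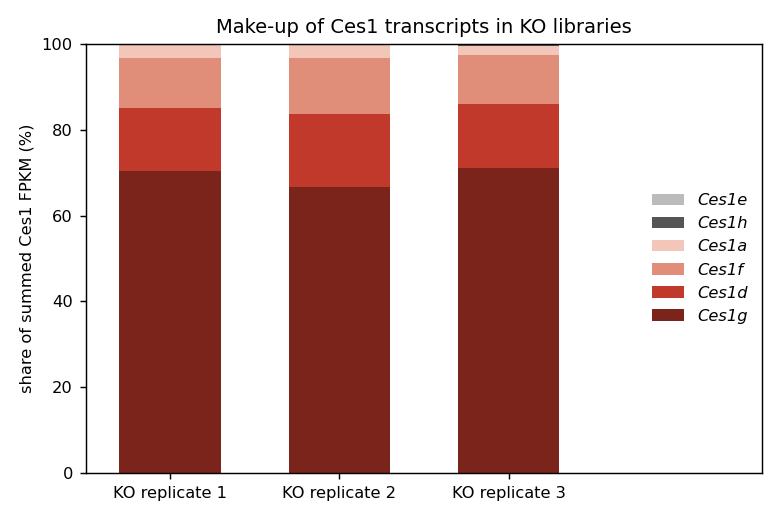
Share of each Ces1 gene in the summed Ces1 FPKM (percent, stacked) in the 3 KO libraries. Ces1g takes 66.5% to 71.1%, and Ces1h and Ces1e are too small to see as bands of their own.

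Because tandem copies can share reads, the likeness of the genes was measured on the GENCODE M21 transcripts. Coding sequences were 1665 to 1704 bases long. Ces1b and Ces1c were 89% identical, and the other 27 pairs of members 72.9% to 82.4%. Members were 58.1% to 59.9% identical to Ces5a, the next gene along the chromosome, and 59.6% to 61.4% to Ces2g of another carboxylesterase group. No window of 100 bases of the Ces1d, Ces1e, Ces1f or Ces1g transcript occurred in a transcript of another gene. Of such windows, 2.34% of Ces1a occurred in Gm45463, 1.29% of Ces1b in Ces1c and 1.39% of Ces1c in Ces1b. For Ces1h the share was 0.339%, in the antisense gene Gm45765, which had 0 counts in all libraries. With windows of 50 bases the shares were 1.67% for Ces1g, 1.28% for Ces1d, 1.6% for Ces1f and 4.87% for Ces1a, and up to 17% for Ces1c. Read length and the handling of reads that fit several genes are not stated, and whether the few counts of Ces1e and Ces1h include reads of other members was not tested.

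**Figure D3:**
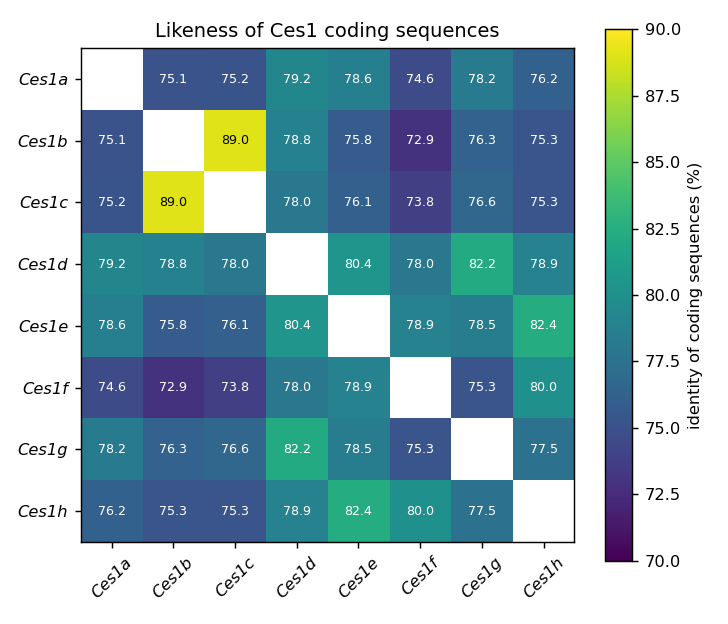
Identity of coding sequences between each pair of Ces1 genes (percent, colour and number), from global alignments of the GENCODE M21 transcripts. Ces1b and Ces1c form the most alike pair at 89%, and the other pairs lie between 72.9% and 82.4%.

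The closest profiles to Ces1g were sought among 13362 tested protein-coding genes, by the root mean square difference of centred log2(CPM + 0.1) over all 6 libraries. The 5 nearest were Rnf144a (0.045), Gpc4 (0.0754), Lgi2 (0.0833), Gria3 (0.112) and Gas7 (0.132). Rnf144a, on chromosome 12, was at 68.8, 66.3 and 64.9 CPM in KO, against 0 counts in each WT library. Gpc4, Lgi2 and Gria3 also had 0 counts in WT, on chromosomes X, 5 and X. Gas7, on chromosome 11, was at 239 ± 8.89 CPM in KO (SD, n = 3) and had 42 counts over the WT libraries. Genes of 4 other chromosomes thus lay close to Ces1g by this measure. With WT at 0, the measure rests on the KO level and on the pseudocount of 0.1. Ces1g was itself selected on its KO and WT counts, so this likeness is a description only.

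The chromosomal surroundings of the cluster were described over the 10 protein-coding genes on each side. Of these 20 neighbours 15 were tested, 11 were higher and 3 lower in KO (edgeR, adjusted p under 0.05), against 35.1% of all tested genes higher and 34.2% lower. Their median log2 fold change was 1.10, against 0.03 over all tested genes. With scaling by total counts or from the deposited FPKM, 10 were higher and 3 lower. Scaling by total counts also moved the calls over all tested genes, from 6578 higher and 6402 lower to 5902 and 7094. The genes that flank the cluster directly had few counts. Slc6a2, the noradrenaline transporter before Ces1a, was at 0.0852, 0 and 0.271 CPM in KO, against 0 counts in each WT library. Ces5a, a carboxylesterase after Ces1h, had 0 counts in KO and 11 counts in WT, all in WT replicate 3.

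Beyond Slc6a2, Capns2, Lpcat2 and Mmp2 were higher in KO. Mmp2, a secreted gelatinase, was at 2151, 2018 and 2080 CPM in KO, against 8.57, 13.5 and 11.5 CPM in WT (log2 fold change 7.54 ± 0.20 SE, edgeR adjusted p = 2.41e-07). Lpcat2 was 3.89-fold higher and Capns2 9.55-fold higher. On the far side, Gnao1, a G protein alpha subunit, was at 93.6 ± 4.24 CPM in KO and 3.56 ± 0.66 CPM in WT (SD, n = 3 each), 26.3-fold higher in KO. The metallothionein genes Mt1 and Mt2 were 10.8-fold and 12.9-fold higher in KO. Other called neighbours were Bbs2, 3.32-fold higher, Rpgrip1l, 2.14-fold, Fto, 1.62-fold, Aktip, 1.52-fold, and Nudt21, 1.19-fold higher, and Irx3, 4.54-fold, and Ogfod1, 1.36-fold lower in KO. Irx3 lost its call without KO replicate 2, WT replicate 2 or WT replicate 3 (edgeR adjusted p = 0.0565, 0.0671 and 0.0515). Nudt21 lost its call with scaling by total counts (edgeR adjusted p = 0.0559) and from FPKM (limma adjusted p = 0.0870 and 0.0862 with pseudocounts of 0.1 and 1). Irx5 was at 12.97 ± 0.57 CPM in KO and 12.5 ± 1.70 CPM in WT (SD, n = 3 each). It missed the threshold (edgeR adjusted p = 0.724), and its sign turned with scaling by total counts, from FPKM and without WT replicate 2. The Ces1 genes were thus not the only genes of this stretch that were higher in KO, and Ces1b, Ces1c, Irx6 and Mt4 had 0 counts throughout.

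**Figure D4:**
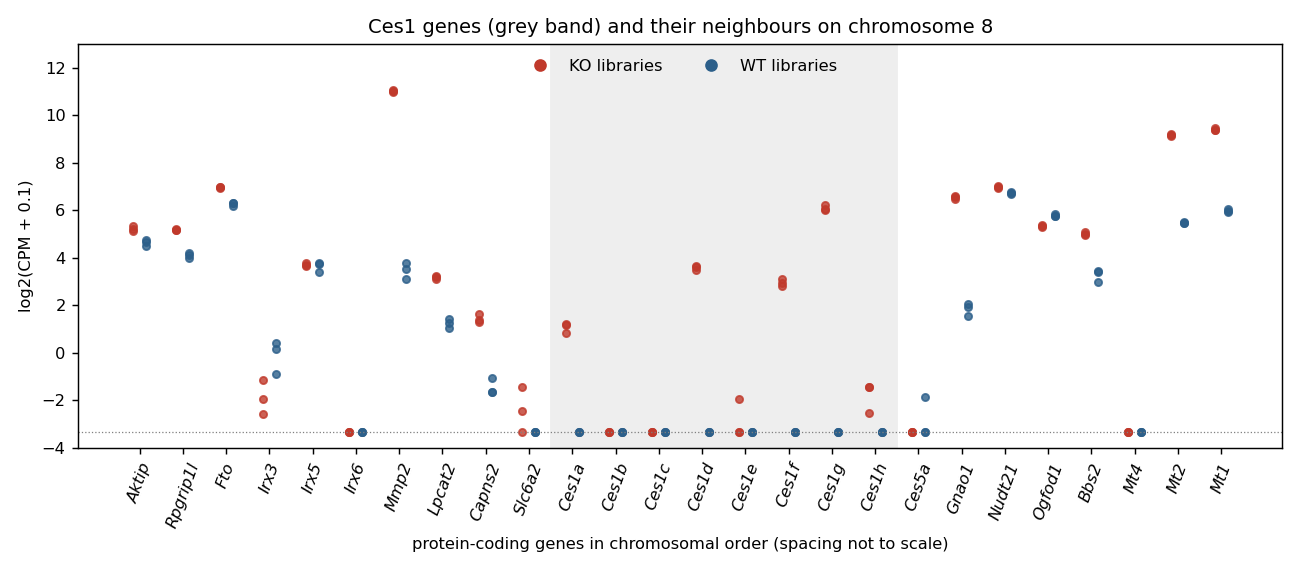
Level of the 8 Ces1 genes (grey band) and the neighbours named in the text, in chromosomal order, as log2(CPM + 0.1) in KO libraries (red) and WT libraries (blue); the dotted line marks 0 counts. In the grey band, all WT points lie on the dotted line, and Mmp2 and Gnao1 stand far higher in KO.

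Carboxylesterases of other groups had few counts. Of 11 listed Ces2, Ces3, Ces4 and Ces5 genes, 5 had 0 counts in all libraries and only Ces2g passed the filter. Ces2g was at 6.17, 4.04 and 5.78 CPM in KO, against 14.2, 15.4 and 14.5 CPM in WT. It fell 2.76-fold, without overlap (log2 fold change -1.46 ± 0.17 SE, edgeR adjusted p = 7.7e-05). In KO, Ces1g was at 24.1 FPKM, while Ces2g was at 1.58 FPKM in KO and 4.77 FPKM in WT.

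Gusb, the beta-glucuronidase that egasyn retains in mouse liver, was at 63.0 ± 1.61 CPM in KO and 15.2 ± 0.72 CPM in WT (SD, n = 3 each), 4.15-fold higher (edgeR adjusted p = 5.05e-08). Egasyn itself, Ces1e, had no more than 9 counts. Of 6 listed genes of retention in the endoplasmic reticulum, 66.7% were called, near the 69.3% of all tested genes. The 3 higher in KO were Gusb and the KDEL receptors Kdelr1 (2.57-fold) and Kdelr2 (1.31-fold). Erp44 was 1.13-fold lower and lost its call without KO replicate 2 (adjusted p = 0.0608), KO replicate 3 (0.0512) or WT replicate 3 (0.0603). Kdelr3 and Erp29 missed the threshold, and the sign of both turned with scaling by total counts.

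Enzymes that share substrates with Ces1 went in both directions. Of all tested genes 35.1% were higher and 34.2% lower in KO, 69.3% in all, and the median over them was 0.03 on the log2 scale. Of 21 listed neutral lipid hydrolases 17 were tested, 8 were higher and 7 lower, 88.2% called against 69.3% of all tested genes (median log2 fold change 0.11). With scaling by total counts or from the deposited FPKM, 6 were higher and 8 lower. The calls over all tested genes also shifted, from 6578 higher and 6402 lower to 5902 and 7094 with scaling by total counts. From FPKM with a pseudocount of 0.1 they were 6098 and 7165. Lipa, the lysosomal acid lipase, was at 166 ± 11.8 CPM in KO and 57.2 ± 5.36 CPM in WT (SD, n = 3 each), 2.90-fold higher. Lpl, lipoprotein lipase, fell 10.7-fold, Faah, which degrades fatty acid amides, 31.8-fold and Dagla, a diacylglycerol lipase, 2.59-fold. Ddhd2, at 68.6 ± 1.303 CPM in KO and 63.5 ± 3.66 CPM in WT (SD, n = 3 each), and Daglb, at 18.7 ± 1.19 CPM in KO and 21.7 ± 1.51 CPM in WT (SD, n = 3 each), missed the threshold. Daglb passed it as lower with scaling by total counts, where the sign of Ddhd2 turned. Of 13 tested cofactors of lipolysis and coats of lipid droplets, 7 were higher and 3 lower, 76.9% called against 69.3% of all tested genes (median 1.14). Higher in KO were Plin4, 15.1-fold, Fabp3, 16.0-fold, Abhd5, an activator of triacylglycerol hydrolysis, 2.81-fold and Plin3 2.20-fold. Genes of this list named after their values were seen are Fabp4, 45.7-fold, G0s2, 24.7-fold, and Fabp5, 1.75-fold higher, and the 3 lower ones. The droplet coat Plin2 was at 134 ± 7.57 CPM in KO and 284 ± 44.0 CPM in WT (SD, n = 3 each), 2.13-fold lower, Fitm2 was 2.87-fold lower and Hilpda 2.05-fold lower. Of 13 tested other esterases, 6 were higher and 5 lower, 84.6% called against 69.3% of all tested genes (median 0.22), or 6 and 3 without KO replicate 1 or without WT replicate 1 and 7 and 3 without WT replicate 2 or with a mean of at least 1 CPM. The thioesterase Ppt1 was 2.82-fold higher and Lypla2 2.01-fold lower.

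Other genes of drug and xenobiotic metabolism were more often higher than lower. Of 23 tested, 17 were higher and 5 lower, against 35.1% of all tested genes higher and 34.2% lower, and their median log2 fold change was 1.46 against 0.03. Ugt1a7c, a glucuronosyltransferase, was at 192 ± 9.77 CPM in KO and 14.0 ± 0.50 CPM in WT (SD, n = 3 each), 13.7-fold higher. The epoxide hydrolase Ephx1 was 5.24-fold higher, Nqo1 3.46-fold and Gstm2 3.38-fold. Among the 5 lower genes, and named after their values were seen, Fmo1, a flavin monooxygenase, was at 0.0772 ± 0.0767 CPM in KO and 9.65 ± 1.52 CPM in WT (SD, n = 3 each), 124-fold lower. Gsta4, a glutathione transferase, was 5.03-fold lower and Cyp1a1 4.397-fold lower.

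Nuclear receptors and other activators linked to carboxylesterase genes differed among themselves. Of 21 tested, 12 were higher and 7 lower, against 35.1% of all tested genes higher and 34.2% lower, and their median log2 fold change was 0.19 against 0.03. Ahr, the aryl hydrocarbon receptor, was 6.15-fold higher and Nr2f1 19.5-fold higher, while Rxrb was 1.93-fold lower. Genes named after their values were seen are the liver X receptors Nr1h3, 4.66-fold lower, and Nr1h2, 2.34-fold higher, and Pparg, 22.8-fold higher. The bile acid receptor Nr1h4 was at 0 counts in KO and at 3.28, 1.35 and 1.67 CPM in WT, at least 121-fold lower in KO with KO set to 3 counts in all.

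**Figure D5:**
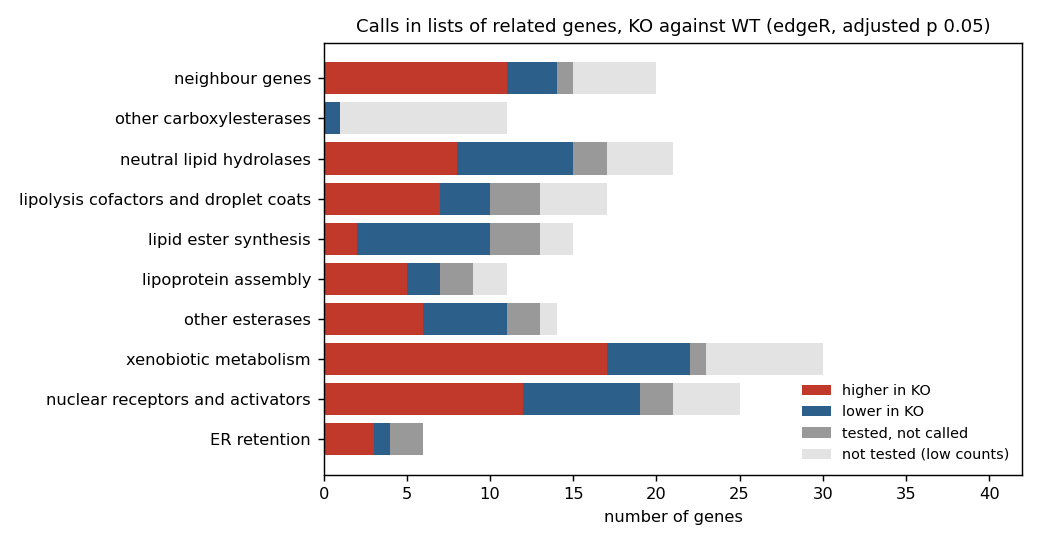
Number of genes in each list that were higher in KO (red), lower in KO (blue), tested without a call (dark grey) or not tested for low counts (light grey), by edgeR at an adjusted p of 0.05. Genes of xenobiotic metabolism were higher in 17 of 23 tested, and lipid ester synthesis was lower in 8 of 13 tested.

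Markers of hepatocytes and adipocytes, cell types known for Ces1 expression, were mostly low, with Lipe as the exception. Of 10 hepatocyte markers the summed level was 0.673 to 0.784 CPM in KO and 1.06 to 1.54 CPM in WT, with Alb at up to 0.136 CPM and Ttr, Tat and Serpina1a at 0 counts in all libraries. Cps1, with 5 counts in KO and 137 in WT, was 23.4-fold lower in KO. The 10 adipocyte markers summed to 13.6 to 18.3 CPM in KO and 8.43 to 8.85 CPM in WT. Most of this was Lipe, hormone-sensitive lipase, at 15.4 ± 2.08 CPM in KO and 6.71 ± 0.52 CPM in WT (SD, n = 3 each), 2.29-fold higher in KO (edgeR adjusted p = 6.83e-05), and its part in the Ces1 values was not tested. Slc2a4, the only other adipocyte marker tested, went the other way, at 0.180 CPM in KO and 1.69 CPM in WT, 9.30-fold lower in KO. Of the other adipocyte markers, Lep and Cidec had 0 counts in all libraries and Adipoq had counts in KO replicate 1 alone (0.204 CPM). The 10 fibroblast markers summed to 10925 to 11829 CPM in KO and 888 to 1039 CPM in WT. Of these 10, 9 were higher in KO, against 35.1% of all tested genes, and their part in the Ces1 values was not tested. The 10 macrophage markers summed to 5.34 to 6.51 CPM in KO and 1.02 to 1.77 CPM in WT. Most of this was Csf1r (3.29 CPM in KO, 0.156 CPM in WT) and Cd68 (2.23 CPM in KO, 1.08 CPM in WT). Ptprc, Adgre1 and 3 other macrophage markers had 0 counts throughout. Endothelial markers summed to 2.69 to 3.25 CPM in KO and 9.60 to 11.2 CPM in WT. Egfl7 led in WT (6.88 CPM). Of 5 tested, 4 were called lower, against 34.2% of all tested genes, and Vwf was 6.18-fold higher in KO. Vwf lost its call without KO replicate 1, KO replicate 2, KO replicate 3 or WT replicate 2. Epithelial markers summed to 8.25 to 11.0 CPM in KO and 63.4 to 66.0 CPM in WT. Most of this was Krt19 (8.38 CPM in KO, 59.2 CPM in WT). Of 5 tested, 4 were called lower, against 34.2% of all tested genes, and Cdh1 was 6.04-fold higher in KO. The 10 smooth muscle markers summed to 249.8 to 252.4 CPM in KO and 74.0 to 89.1 CPM in WT, most of the KO sum being Acta2 (161 CPM in KO, 16.4 CPM in WT). The list was split, with 5 markers higher and 4 lower in KO, against 35.1% of all tested genes higher and 34.2% lower. Its median log2 fold change was -0.39. The lower ones were Myocd, with 0 counts in KO and 0.428 CPM in WT, Des, 5.06-fold, Synpo2, 2.74-fold, and Mylk, 2.08-fold lower. Synpo2 lost its call without WT replicate 2 (edgeR adjusted p = 0.0610) and from FPKM (limma adjusted p = 0.705 and 0.909). Myh11, the smooth muscle myosin, was below 1 CPM in every library. In bulk RNA, fewer cells of a type and less RNA per cell cannot be told apart. Transcripts of 4 Y-linked genes summed to 149.9 to 163.2 CPM in the KO libraries that carried the Ces1 counts and to 0 to 0.0795 CPM in WT, so this difference and the Nono genotype cannot be told apart in any Ces1 value.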

How the data were processed

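RNA sequencing counts of 3 KO and 3 WT libraries were used, grouped by sample title. Per the file headers, the authors deposited counts of reads and FPKM for each Ensembl gene. The tools CASAVA 1.8, SAMtools 1.3.1, HISAT2 and edgeR and the build GRCm39 are named, without their roles, per the submitters' processing notes. The read counter, strand setting, annotation and way of making FPKM are not stated. Symbols, gene order and transcripts came from GENCODE M21 (GRCm38), which matched 98.2% of IDs. Depth was 56529170 to 61670083 counts per library. Chi-square per degree of freedom between replicates was 22.6 to 34.8, above sampling noise.

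Counts were filtered with filterByExpr (18732 genes kept), scaled with TMM factors and compared by the quasi-likelihood test (robust) of edgeR 4.0.16 (R 4.3.3), KO against WT without covariates, Benjamini-Hochberg adjusted over all tested genes at 0.05. Folds are from that fit. Sequences were aligned with Biopython 1.88. On counts simulated over 17715 genes, the test found 44% of 1.5-fold changes, 86% of 2-fold, 98% of 4-fold and 100% of 8-fold changes. It made 176 calls there, of which 12 were false. The data gave 12980 calls among 18732 tested genes, and whether these rates hold at that share of calls was not tested.

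The members and all lists were chosen with earlier results of these data known. The naming rule took all members, the neighbours, up to 4 called genes and 2 others per list, and the 5 profiles closest to Ces1g. Of the genes it allows, Esd, Siae, Bscl2, Cideb, Lypla1, Pon2, Sult1a1, Ppard, Nr1i3, Gpat4, Gpam, Pltp, Sar1b and single markers are not printed, a choice made with their values known. Slc6a2, Capns2, Irx3, Ces5a and single markers outside it were named after their values were seen. Alternatives were other scalings, filters and tests (DESeq2 1.42.0, limma 3.58.1), the replicate block, FPKM and leaving out each library. Results for some genes of these lists are not reported here.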

Additional observations from a re-analysis of the deposited data

How the results depend on the processing

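The Ces1 counts need no model, and 0 counts in WT hold under any scaling. The difference of the summed cluster in mean log2(CPM + 0.1) was 9.82, became 6.52 with log2(CPM + 1) and 8.44 with log2(FPKM + 0.1), since it rests on the pseudocount when WT is at 0, and lay between 9.78 and 9.84 without single libraries. Of the other carboxylesterases, 1 gene was called, and 2 were called without a low-count filter. Leaving out single libraries gave 1 to 2, with 2 without WT replicate 3. Scaling by total counts moved the median log2 fold change of all tested genes from 0.03 to -0.10. Counts of calls over all genes were 12980, and 12233 with the replicate block. Same-numbered libraries did not deviate together (r = -0.0952 to -0.0239 over 11366 genes). With 3 libraries per group this shows no pairing by number and cannot exclude one. Under the block the neighbours kept a count of 14 calls. For 70 of the named genes, 1045 values under an alternative were compared. Of these values, 1020 kept their direction and their side of the threshold, 12 lost a call, 3 gained one and 10 turned their sign. With scaling by total counts the log2 fold change turned to -0.075 for Irx5, -0.021 for Ddhd2, -0.089 for Kdelr3 and -0.010 for Erp29. From FPKM with pseudocounts of 0.1 and 1 it turned to -0.062 and -0.052 for Irx5 and to -0.083 and -0.082 for Kdelr3. Without single libraries Irx5 lay between -0.054 and 0.133 and Erp29 between -0.024 and 0.269, turning without WT replicate 2 and WT replicate 3 in that order. Calls were lost for Irx3 without KO replicate 2, WT replicate 2 or WT replicate 3, for Synpo2 without WT replicate 2 and from FPKM, for Erp44 without KO replicate 2, KO replicate 3 or WT replicate 3, and for Nudt21 with scaling by total counts and from FPKM, where Daglb gained a call. Outside these values, Vwf lost its call without KO replicate 1, KO replicate 2, KO replicate 3 or WT replicate 2. The cause was not tested. Ces1e and Ces1h rest on 9 and 36 counts.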

Other observations

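Genes that make the esters on which carboxylesterases act were more often lower than higher in KO. Of 15 listed genes of lipid ester synthesis 13 were tested, 2 were higher and 8 lower, against 35.1% of all tested genes higher and 34.2% lower, and their median log2 fold change was -0.39 against 0.03. Dgat2, which makes triacylglycerol, was at 4.87, 4.47 and 3.65 CPM in KO, against 81.5, 79.0 and 78.8 CPM in WT, and fell 18.4-fold (edgeR adjusted p = 1.73e-08). The acyltransferases Gpat3 and Mogat2 fell 20.0-fold and 14.6-fold. Lpin1, a phosphatidate phosphatase, was 3.90-fold higher.

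Of 9 tested genes of lipoprotein assembly, 5 were higher and 2 lower, 77.8% called against 69.3% of all tested genes (median log2 fold change 0.27), or 3 and 2 from the deposited FPKM or with a mean of at least 1 CPM. Apoe, an apolipoprotein, was at 114 ± 4.73 CPM in KO and 3.17 ± 0.58 CPM in WT (SD, n = 3 each), 36.0-fold higher. Apoc1 was at 2.18, 1.51 and 1.20 CPM in KO, against 0 counts in each WT library, at least 101-fold above 3 counts in all of WT. Mttp, which loads lipid onto apolipoprotein B, fell 3.39-fold, and P4hb, its partner subunit, was 2.27-fold higher.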
